A study of Arabidopsis thaliana with 12 samples.

Results

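Class III peroxidases of Arabidopsis thaliana were followed in whole germinants, 12 days old and of the Columbia (Col-0) ecotype, that were grown on nanoparticles of titania (TiO2) or ceria (CeO2) or on the control liquid of each. The genes were 60 listed loci of the family, whose members carry PER numbers from 1 to 73 in the order of their loci. Of the 60 loci, 45 had a probe set that the probe annotation paired with that locus alone, and these are the members described here, among 13287 genes of the series with a probe set of their own. Another 4 loci had only a probe set shared with a neighbouring member, and 11 were not in the annotation and are not analysed here. No member had more than 1 probe set of its own, so no choice between probe sets was needed. The rule names family members and uses no measured value, but the list was drawn up with earlier results of these data known, so a share of members set beside the share of all probe sets is a description. Of the 13 numbered loci outside the list 10 had a probe set of their own. None of these passed a limma test in either particle comparison, against 10.6% of all probe sets in TiO2 and 2.42% in CeO2. With only 10 loci, several of them with dim signal, the absence of calls does not set them apart from these shares.

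Class III peroxidases are secreted haem enzymes found in plants. With hydrogen peroxide they oxidise phenolic compounds in the cell wall, which couples monolignols into lignin, cross-links extensins and stiffens the wall. They can also produce superoxide and hydroxyl radicals, and single members are known for roles in Casparian strip lignin, root hair growth, xylem lignin and the oxidative burst of defence. Many of the genes are known to be expressed mainly in roots.

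RNA from each of 4 groups was hybridised to 3 arrays. The groups were germinants on 0.1 mM KCl, on TiO2 at 500 mg per L, on sterile purified water (Millipore) and on CeO2 at 500 mg per L. KCl was the control of TiO2 and water the control of CeO2. All were wild type, raised from 50 seeds on a filter disc wetted with 2 mL, and the labels do not state in which liquid the particles were suspended. The labels call the KCl and TiO2 arrays biological replicates and the others only replicates, so for water and CeO2 the spread may be partly technical.

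The arrays hold 22746 probe sets, of which 13513 were paired with 1 gene. The lowest log2 value of an array was 2.30 to 2.51, so a group mean under 4 is called near the floor here, where a change can be understated. Arrays of a group correlated at 0.993 to 0.997 across probe sets. KCl and TiO2 arrays formed one set and water and CeO2 arrays the other. Quantiles of the 2 sets lay up to 0.259 log2 apart, while those of single arrays strayed by no more than 0.0833 from their own set. It is not known whether the sets were normalized separately, so a level in one set beside a level in the other may carry a difference in processing. The values are log2 expression as the authors deposited it, and values of different probe sets do not rank the amounts of their transcripts. Tests are two-sided, from limma, with p-values adjusted (Benjamini-Hochberg) across the whole array and called at 0.05. An error after a change is its standard error (SE), and one after a group mean is the standard deviation (SD, n = 3). In whole germinants, fewer cells of a type and less RNA per cell cannot be told apart.

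Which peroxidase transcripts differed in germinants on titania was asked by comparing TiO2 with KCl, and all but 1 of the members past the threshold were lower. Of the 45 members, 12 were lower and 1 was higher in TiO2, against 5.86% and 4.72% of all probe sets, or 10.6% in either direction. The falls were a larger share of the members (26.7%) than of all probe sets, and the single rise a smaller one (2.22%). The members lower in TiO2 were PER10, PER12, PER27, PER37, PER42, PER44, PER47, PER56, PER57, PER59, PER65 and PER71, and the member that rose was PER8. The largest falls were of PER59 (AT5G19890), by 6.19-fold, and of PER10 (AT1G49570), by 4.10-fold, and these were the only called members that changed at least 2-fold, against 0.734% of all probe sets lower and 0.163% higher by this much, 0.897% in all. The median change over the 45 members was −0.17 log2, with 0.02 over all probe sets, and the median size of a change without its sign was 0.19 against 0.11. Changes of members ranged from −2.63 to 0.69. The 3 TiO2 arrays did not overlap the 3 KCl arrays in 17 members (37.8%), 4 higher and 13 lower, against 24.4% of all probe sets (13.1% higher and 11.3% lower).

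In CeO2 against water the calls went both ways. Of the 45 members, 9 were higher and 6 lower, against 1.26% and 1.16% of all probe sets, or 2.42% in either direction, while 33.3% of the members were called. The higher members were PER7, PER8, PER21, PER24, PER35, PER44, PER57, PER59 and PER65, and the lower ones were PER5, PER16, PER27, PER58, PER62 and PER71. Called changes of at least 2-fold were found in 7 members, against 0.624% of all probe sets, with 5 members higher (0.277%) and 2 lower (0.347%). They were the rises of PER8, PER24, PER44, PER35 and PER7 and the falls of PER5 and PER62. The median change of the members was 0.06, with −0.01 over all probe sets, while the median size of a change without its sign was 0.30 against 0.08. The members thus spread to both sides, from −2.29 to 1.87. Arrays of the groups did not overlap in 24 members (53.3%), 12 higher and 12 lower in CeO2, against 16.8% of all probe sets (8.26% higher and 8.54% lower).

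**Figure D1:**
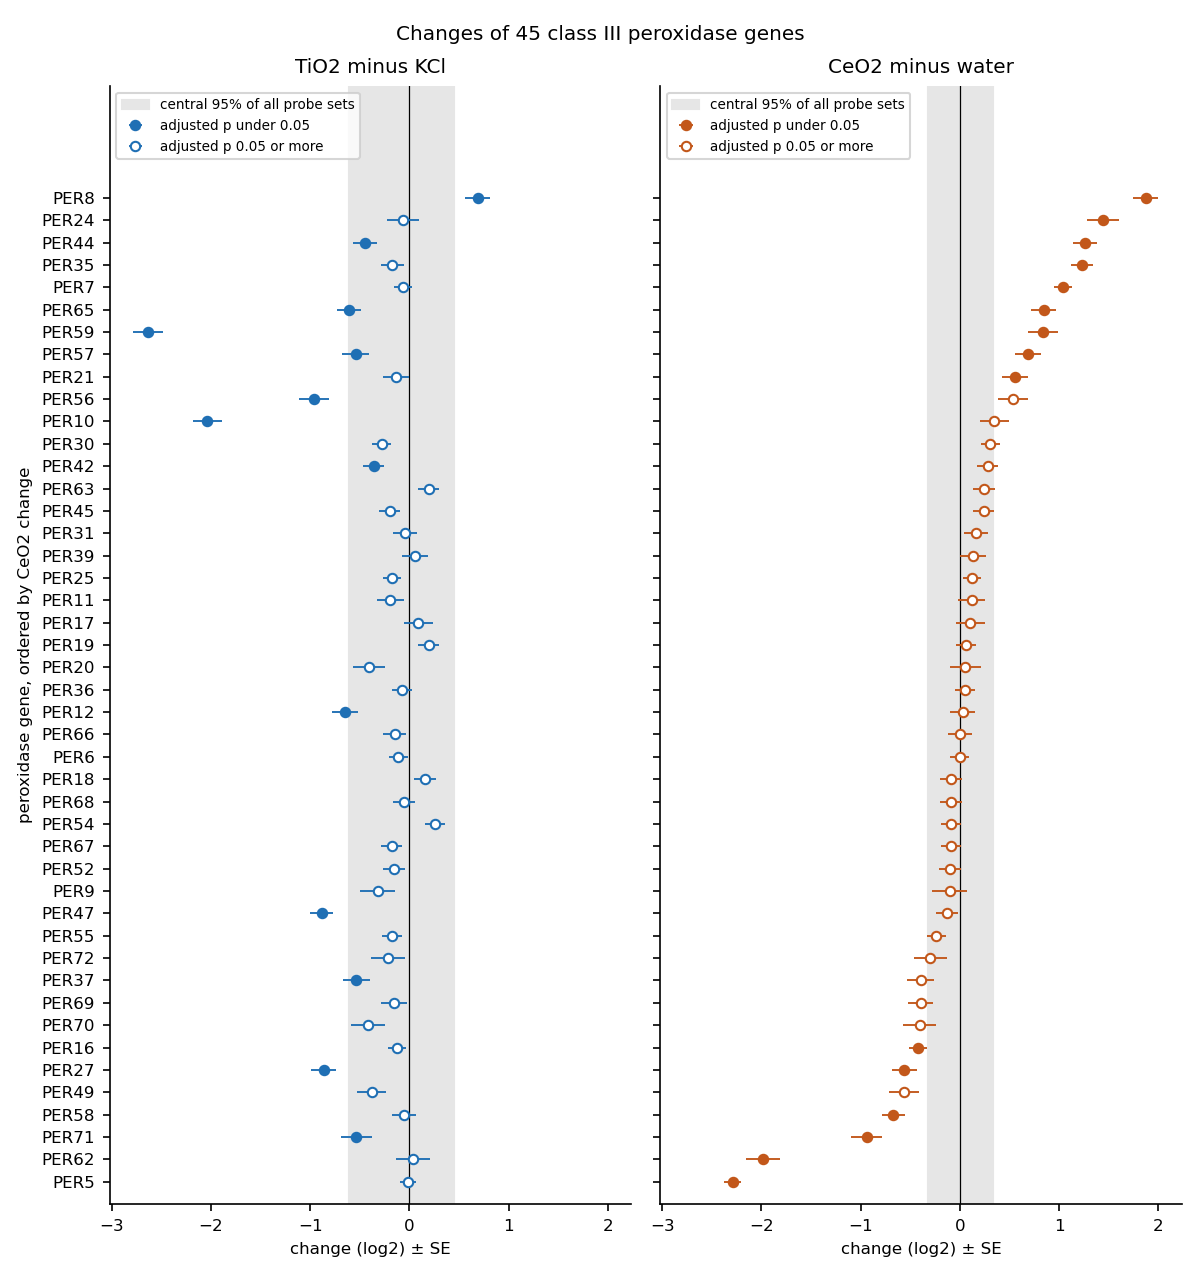
Change of each of the 45 measured peroxidase genes in TiO2 against KCl (left) and in CeO2 against water (right), in log2 with its SE, both panels in the order of the CeO2 change and with filled points for adjusted p under 0.05. Filled points in the left panel lie to the left of 0 for 12 genes and to the right for PER8, and in the right panel they lie at both ends, with 9 genes higher and 6 lower; the grey band holds the central 95% of all probe sets.

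Each member was placed in a single role group here, so a group need not hold every member with that role. The measured members of a group therefore do not stand for all peroxidases with that role. Of the 5 listed members grouped here under root hairs, PER44 and PER69 were measured. PER1, PER60 and PER73 are not analysed here. PER44 (AT4G26010), which is needed for normal root hair elongation, where it is thought to cross-link extensins, rose in CeO2 and fell in TiO2. Water arrays gave 10.02, 10.51 and 10.36 log2 and CeO2 arrays 11.48, 11.50 and 11.69. All 3 CeO2 values thus lay above all 3 water values. The rise was 1.26 ± 0.12 log2, or 2.39-fold (adjusted p = 6.50e-06). On the titania side the KCl arrays gave 10.98, 11.17 and 11.01 and the TiO2 arrays 10.60, 10.76 and 10.47, again without overlap but closer together. That fall was 0.44 ± 0.12 (adjusted p = 0.0267), and its call was lost without KCl replicate 2 or TiO2 replicates 1 or 3 (adjusted p = 0.0646 to 0.109). PER69 (AT5G64100), which acts in root hair growth at low temperature, passed neither test. Its changes were −0.15 in TiO2 (adjusted p = 0.55, 95% interval −0.43 to 0.12) and −0.39 in CeO2 (adjusted p = 0.178, −0.67 to −0.12). Its arrays were 11.49, 11.72 and 11.38 in KCl, 11.26, 11.41 and 11.45 in TiO2, 11.53, 11.73 and 11.71 in water and 11.36, 10.95 and 11.48 in CeO2. The CeO2 values of PER69 all lay below those of water, while the KCl and TiO2 values overlapped.

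PER57 (AT5G17820), a root tip peroxidase gene repressed by the growth regulator UPB1, also rose in CeO2 and fell in TiO2. It read 9.51, 9.67 and 9.67 in water and 10.32, 10.22 and 10.36 in CeO2, a rise of 0.69 ± 0.13 (adjusted p = 0.0076). KCl arrays read 10.27, 10.54 and 9.83 and TiO2 arrays 9.60, 9.70 and 9.71, a fall of 0.54 ± 0.13 (adjusted p = 0.0153). Groups did not overlap in either comparison, but KCl was the most variable group, with an SD of 0.36. The call in TiO2 was lost without KCl replicates 1 or 2 or TiO2 replicate 1 (adjusted p = 0.0535 to 0.0744), and that in CeO2 without water replicate 1 (adjusted p = 0.0552). The call in TiO2 was also lost with the KCl and TiO2 arrays fitted alone (adjusted p = 0.0834). UPB1 itself was at −0.59 in TiO2 (adjusted p = 0.119) and 0.25 in CeO2 (adjusted p = 0.856), with TiO2 arrays from 4.61 to 5.84.

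Of 8 root hair marker genes, 2 were measured, the root hair expansins EXPA7 and EXPA18, and both were higher in CeO2. EXPA18 rose from 7.31 ± 0.14 to 8.74 ± 0.25 log2 and EXPA7 from 7.64 ± 0.12 to 8.60 ± 0.22 (adjusted p = 2.13e-06 and 3.52e-04). In TiO2 their changes were 0.07 and 0.34 (adjusted p = 0.823 and 0.129). The 2 markers therefore moved with PER44 in CeO2, and whether the amount of root hair tissue had a part in the change of PER44 was not tested. The 1 measured general root marker of 13, the root beta-glucosidase gene PYK10, was at 0.01 in CeO2 (95% interval −0.17 to 0.19) and 0.09 in TiO2 (−0.09 to 0.27). COBL9, RHD6, RSL4, COW1, LRX1 and RBOHC, the other root hair markers listed, are not analysed here.

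The largest falls in CeO2 were in members grouped here under defence. That grouping was made with earlier results of these data known, and for PER5 and PER37 no defence role is described here. The group had 8 listed members, of which 5 were measured. Of these, 3 fell and 1 rose in CeO2 (1.16% and 1.26% of all probe sets), while 2 fell in TiO2 (5.86%). The median change of the 5 genes was −0.94 in CeO2 and −0.14 in TiO2, against −0.01 and 0.02 over all probe sets. PER5 (AT1G14550) is the neighbour of PER4, a gene known to be induced by bacterial flagellin. It read 6.87, 6.92 and 6.75 in water and 4.54, 4.66 and 4.47 in CeO2, so that every CeO2 value was more than 2 log2 units below every water value. The fall was 2.29 ± 0.08, or 4.89-fold (adjusted p = 5.53e-11). In KCl and TiO2 the gene read 3.90, 3.84 and 3.81 and 3.84, 3.82 and 3.85, near the floor, which limits how large a fall could be seen.

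PER62 (AT5G39580), whose overexpression raises resistance to the fungus Botrytis cinerea, had the next largest fall. Water arrays gave 9.53, 9.68 and 9.86 and CeO2 arrays 7.95, 7.46 and 7.72, a fall of 1.98 ± 0.17 or 3.95-fold (adjusted p = 2.18e-06). KCl arrays gave 5.90, 6.41 and 6.57 and TiO2 arrays 6.06, 6.36 and 6.57, which overlapped, with a change of 0.03 (adjusted p = 0.945, 95% interval −0.33 to 0.40). The 4 group means of PER62 thus ran from 6.29 in KCl and 6.33 in TiO2, which did not differ beyond their spread, through 7.71 in CeO2 to 9.69 in water.

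PER71 (AT5G64120), which acts in immunity and in the response to cell wall damage, was lower in both particle comparisons. It read 11.49, 11.84 and 11.74 in water and 10.81, 10.63 and 10.81 in CeO2, a fall of 0.94 ± 0.16 (adjusted p = 0.00195). KCl arrays read 10.26, 10.63 and 9.98 and TiO2 arrays 9.50, 10.06 and 9.70. There KCl replicate 3 lay below TiO2 replicate 2, so the groups overlapped, and the fall was 0.54 ± 0.16 (adjusted p = 0.039). That call was lost without KCl replicates 1 or 2, TiO2 replicates 1 or 3, water replicate 3 or CeO2 replicates 1 or 3 (adjusted p = 0.0513 to 0.175) and also after a second quantile normalization (adjusted p = 0.0582) or with the KCl and TiO2 arrays fitted alone (adjusted p = 0.13), whereas the call in CeO2 was kept with any single array left out. PER37 (AT4G08770), whose overexpression restricts growth, fell in TiO2 from 7.32, 7.73 and 8.02 on the KCl arrays to 6.97, 7.24 and 7.25 (0.53 ± 0.14, adjusted p = 0.02). Its call was lost without KCl replicates 2 or 3 or TiO2 replicate 1 (adjusted p = 0.0642 to 0.087), and with the KCl and TiO2 arrays fitted alone (adjusted p = 0.0994). In CeO2 it read 7.63, 7.46 and 7.62 against 7.97, 7.89 and 8.02 in water, below every water value by a small margin, and did not pass the test (−0.39, adjusted p = 0.238). It did pass with the water and CeO2 arrays fitted alone (adjusted p = 0.0343).

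PER21 (AT2G37130), another gene whose overexpression raises Botrytis resistance, went the other way in CeO2. It read 8.56, 8.77 and 8.89 in water and 9.39, 8.97 and 9.53 in CeO2, a rise of 0.56 ± 0.13 (adjusted p = 0.0335). The lowest CeO2 value was just above the highest water value, and the call was lost without water replicates 1 or 2 or CeO2 replicates 1 or 3 (adjusted p = 0.0934 to 0.221), and with the water and CeO2 arrays fitted alone (adjusted p = 0.0675). In TiO2 PER21 was at −0.14 (adjusted p = 0.625). PER4, PER33 and PER34, the other listed members of the group and known for the flagellin response and the apoplastic oxidative burst, are not analysed here. The 3 genes of this group that fell in CeO2 also had higher means in water than in KCl. These were 6.85 against 3.85 for PER5, 9.69 against 6.29 for PER62 and 11.69 against 10.29 for PER71. These levels cross the sets of arrays and share the water arrays with the CeO2 comparison, so they are given side by side only.

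**Figure D2:**
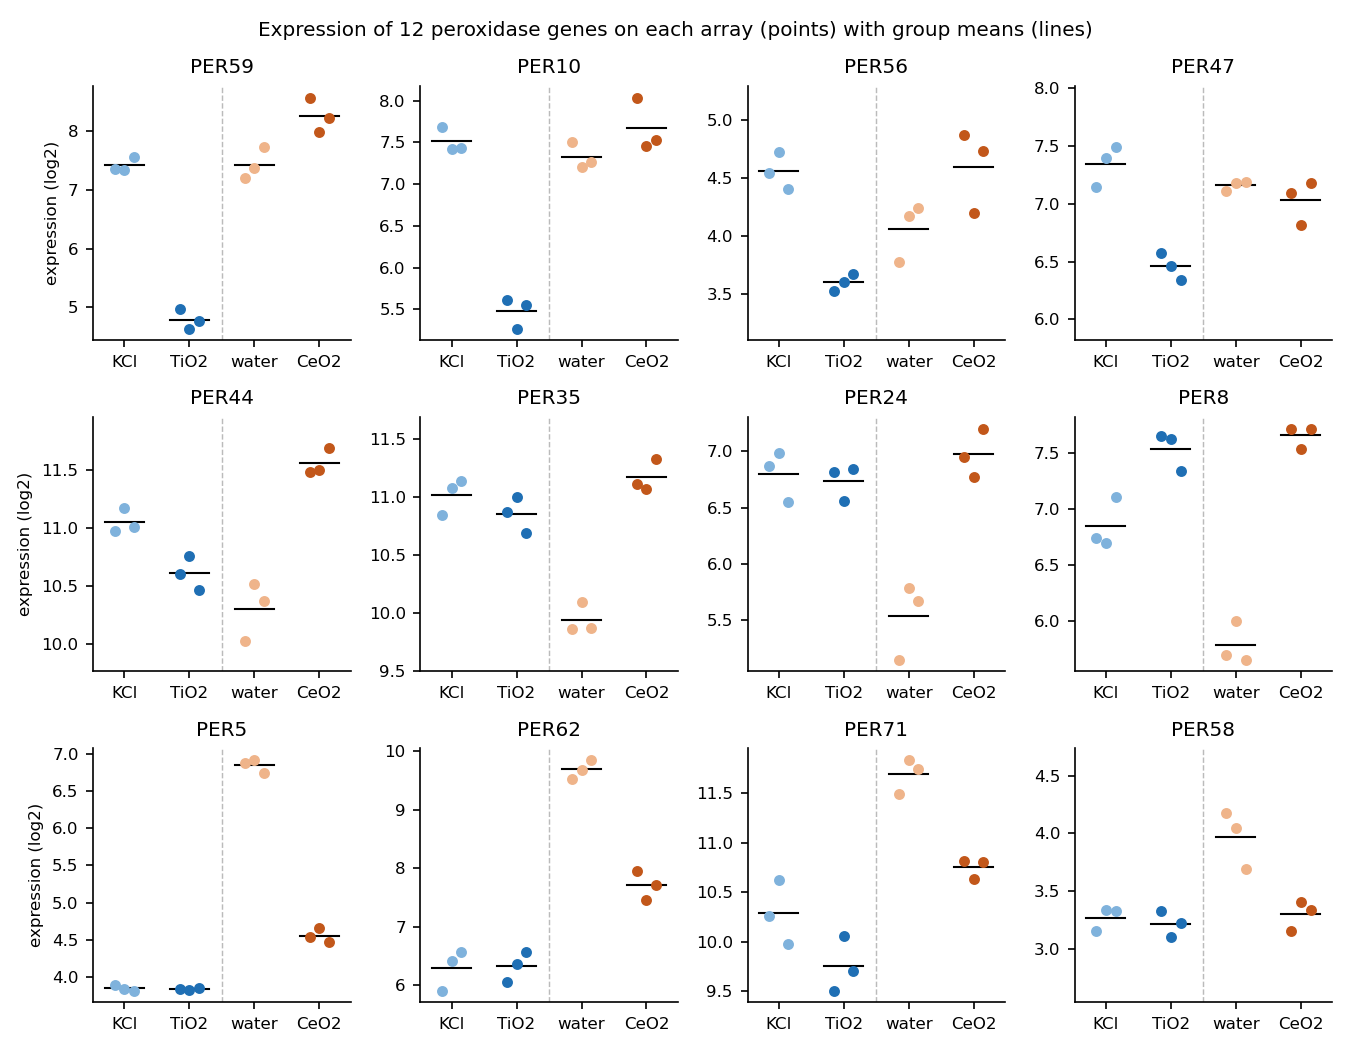
Expression (log2) of 12 peroxidase genes on each of the 12 arrays, with points for arrays, lines for the group means of 3 arrays, a dashed line between the sets of arrays and a scale of its own in each panel that does not start at 0. PER59 and PER10 are low on the 3 TiO2 arrays, PER35, PER24 and PER8 are lowest on the 3 water arrays, PER44 is lower on the water than on the CeO2 arrays, and PER5, PER62, PER71 and PER58 are high on the 3 water arrays.

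None of the 3 measured peroxidase genes of the Casparian strip, the lignin ring of the root endodermis, passed either limma test. At an unadjusted p under 0.05, which 23% of all probe sets reached in TiO2 and 9.8% in CeO2, the count was also 0. Their median change was −0.22 in TiO2 and −0.10 in CeO2. The Casparian genes PER3 and PER64 are not analysed here. PER9 (AT1G44970) read 6.36, 6.77 and 6.69 in KCl, 6.13, 6.45 and 6.28 in TiO2, 5.79, 5.93 and 6.05 in water and 6.23, 5.31 and 5.91 in CeO2. PER39 (AT4G11290) read 8.06, 8.31 and 7.96 in KCl, 8.17, 8.22 and 8.11 in TiO2, 7.86, 8.06 and 8.00 in water and 8.30, 7.74 and 8.27 in CeO2. For PER72 (AT5G66390), which also acts in lignification of stems, KCl arrays read 7.37, 7.77 and 8.14 and TiO2 arrays 7.37, 7.58 and 7.68, while water arrays read 8.20, 8.12 and 8.10 and CeO2 arrays 8.07, 7.49 and 7.97. Groups overlapped in both comparisons for PER9 and PER39, and for PER72 in TiO2 but not in CeO2. Changes in TiO2 were −0.32 for PER9 (95% interval −0.70 to 0.06), 0.06 for PER39 (−0.22 to 0.34) and −0.22 for PER72 (−0.57 to 0.14). In CeO2 they were −0.10 (−0.48 to 0.28), 0.13 (−0.15 to 0.41) and −0.30 (−0.66 to 0.06). A 2-fold change of PER9, PER39 or PER72 lay outside all of these intervals.

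Among the 5 measured genes of xylem and stem lignin, of 6 listed, the median change was −0.15 in TiO2 and 0.00 in CeO2. PER47 (AT4G33420), expressed in differentiating xylem vessels, fell in TiO2. KCl arrays read 7.14, 7.40 and 7.49 and TiO2 arrays 6.58, 6.46 and 6.35, which did not overlap. The fall was 0.88 ± 0.11, or 1.85-fold (adjusted p = 8.85e-05), and in CeO2 the gene was at −0.13 (adjusted p = 0.84). PER66, another vessel gene, was at −0.15 in TiO2 and 0.00 in CeO2, with intervals of −0.40 to 0.10 and −0.25 to 0.25. PER17, PER25 and PER52, which act in the lignin of stems, pods or fibres, passed neither test, with changes from −0.18 to 0.13, both of PER25. Of the seed group, PER16 (AT2G18980), known from seed germination, fell in CeO2 by 0.42 ± 0.09 (adjusted p = 0.014), from a mean of 9.76 ± 0.02 in water to 9.34 ± 0.10. That call was lost without water replicates 1 or 2 or CeO2 replicates 2 or 3 (adjusted p = 0.0538 to 0.0792). PER36, which loosens the outer wall of the seed coat so that mucilage is released, had 4 group means under 4, near the floor, and passed neither test. The 2 measured seed markers of 8, both transcripts of late seed development, were lower in TiO2, M17 by 2.22 ± 0.36 and PAP85 by 1.38 ± 0.28 (adjusted p = 7.63e-04 and 0.0042). The TiO2 arrays of M17 were uneven, at 5.67, 6.16 and 7.75. The seed group peroxidases PER16 and PER36 were at −0.13 and −0.08 in TiO2. Whether the falls of the seed markers had a part in the falls of peroxidases in TiO2 was not tested.

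The largest changes of the family in TiO2 were in members to which no role is assigned here. Of 33 such listed loci 27 were measured, and their median change was −0.18 in TiO2 and 0.12 in CeO2. PER59 (AT5G19890) read 7.35, 7.34 and 7.57 on the KCl arrays and 4.97, 4.63 and 4.77 on the TiO2 arrays. It fell by 2.63 ± 0.15 log2, or 6.19-fold (adjusted p = 3.03e-08), a larger fall than that of all but 1 of the 22746 probe sets. In CeO2 it read 8.58, 7.99 and 8.24 against 7.20, 7.37 and 7.73 in water. It thus rose there by 0.83 ± 0.15, or 1.78-fold (adjusted p = 0.00421), with all CeO2 values above all water values. PER10 (AT1G49570) read 7.68, 7.42 and 7.43 in KCl and 5.61, 5.27 and 5.55 in TiO2, a fall of 2.04 ± 0.14 or 4.1-fold (adjusted p = 3.02e-07), the 13th largest fall of all probe sets. Its CeO2 arrays read 8.04, 7.46 and 7.53 against 7.50, 7.21 and 7.26 in water, where the groups overlapped (0.35, adjusted p = 0.389).

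Smaller falls in TiO2 were found in 5 other members with no role assigned. PER56 (AT5G15180) read 4.54, 4.73 and 4.41 in KCl and 3.52, 3.60 and 3.67 in TiO2, near the floor, a fall of 0.96 ± 0.16 (adjusted p = 7.27e-04). PER27 (AT3G01190) read 6.72, 6.93 and 6.77 and 5.71, 5.99 and 6.11, a fall of 0.86 ± 0.13 (adjusted p = 3.54e-04). For both genes the TiO2 values all lay below the KCl values. PER12 (AT1G71695) read 10.45, 10.61 and 11.05 in KCl and 10.18, 10.03 and 9.96 in TiO2, a fall of 0.65 ± 0.13 (adjusted p = 0.00369). PER65 (AT5G47000) read 4.27, 4.59 and 4.04 and 3.73, 3.62 and 3.72, the latter near the floor, a fall of 0.61 ± 0.12 (adjusted p = 0.00355). These groups did not overlap either, and the 4 calls were kept with any single array left out. PER42 (AT4G21960) fell by 0.36 ± 0.10 (adjusted p = 0.0383), from a mean of 11.59 ± 0.13 to 11.23 ± 0.17. That call was lost without KCl replicates 1 or 3, TiO2 replicates 1 or 3 or CeO2 replicate 3 (adjusted p = 0.0518 to 0.161). It was also lost after a second quantile normalization (adjusted p = 0.058), after centring each array on its median (adjusted p = 0.0527) and with the KCl and TiO2 arrays fitted alone (adjusted p = 0.107).

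PER8 (AT1G34510) was the only member higher in TiO2, and it also had the largest rise in CeO2. TiO2 arrays read 7.65, 7.63 and 7.34 against 6.74, 6.70 and 7.11 in KCl, a rise of 0.69 ± 0.13 (adjusted p = 0.00209). CeO2 arrays read 7.72, 7.54 and 7.71 against 5.70, 6.0 and 5.65 in water, a rise of 1.87 ± 0.13, or 3.66-fold (adjusted p = 1.36e-07), the fourth largest rise of all probe sets. Groups did not overlap in either comparison, and both calls were kept with any single array left out.

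The other rises in CeO2 among members with no role assigned were of PER24, PER35, PER7 and PER65. PER24 (AT2G39040) read 5.14, 5.78 and 5.67 in water and 6.95, 6.78 and 7.20 in CeO2, a rise of 1.44 ± 0.16 or 2.72-fold (adjusted p = 3.19e-05). PER35 (AT3G49960) read 9.86, 10.10 and 9.87 and 11.11, 11.07 and 11.33, a rise of 1.23 ± 0.11 or 2.35-fold (adjusted p = 3.74e-06). PER7 (AT1G30870) read 9.87, 10.04 and 9.91 and 11.03, 10.87 and 11.05, a rise of 1.04 ± 0.09 or 2.06-fold (adjusted p = 3.04e-06). In TiO2 these 3 genes were at −0.06, −0.17 and −0.06 and passed no test, with 95% intervals of −0.40 to 0.28, −0.41 to 0.07 and −0.26 to 0.13. Their water arrays were the lowest of the 4 groups, with means of 5.53 for PER24, 9.94 for PER35 and 9.94 for PER7 against 6.80, 11.02 and 10.45 in KCl, levels that again cross the sets. PER65 (AT5G47000) read 3.54, 3.59 and 3.75 in water, near the floor, and 4.62, 4.42 and 4.37 in CeO2, a rise of 0.84 ± 0.12 (adjusted p = 4.44e-04).

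Falls in CeO2 outside the defence and seed groups were those of PER58 and PER27. PER58 (AT5G19880) read 4.17, 4.05 and 3.70 in water and 3.16, 3.41 and 3.34 in CeO2, a fall of 0.67 ± 0.12 (adjusted p = 0.00331), with all 4 group means near the floor. PER27 read 7.94, 8.07 and 7.96 and 7.65, 7.14 and 7.51, a fall of 0.56 ± 0.13 (adjusted p = 0.0257). Its lowest water value lay above its highest CeO2 value, but the call was lost without water replicates 1, 2 or 3 or CeO2 replicates 2 or 3 (adjusted p = 0.0656 to 0.132). PER49 (AT4G36430) narrowly missed the threshold, at −0.56 (adjusted p = 0.0619), with no overlap between its groups. It passed without KCl replicate 2, KCl replicate 3 or water replicate 2 (adjusted p = 0.0374 to 0.0413) or where the prior spread followed intensity and was fitted robustly (adjusted p = 0.0464).

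The difference of the effects (CeO2 effect minus TiO2 effect) asks gene by gene whether a peroxidase departed from its own control differently on the 2 particles. It was past the threshold in 18 of the 45 members, against 8.06% of all probe sets. In 15 it was positive and in 3 negative, against 4.64% and 3.42%. It reached 2-fold in 12 of the 18, 10 positive and 2 negative, against 1.94% of all probe sets (1.41% and 0.532%). At an unadjusted p under 0.05 the count was 22, against 19.7% of all probe sets. Particle, control liquid and set of arrays cannot be told apart in this difference. PER59 had a difference of 3.46 ± 0.21 log2 (adjusted p = 7.17e-08), the largest positive value of all 22746 probe sets, and PER10 one of 2.39 ± 0.20 (adjusted p = 2.32e-06), the 13th largest.

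Opposite calls in the 2 comparisons, lower in TiO2 and higher in CeO2, were made for 4 members, PER44, PER57, PER59 and PER65. Each of them passed the test of the difference, with 1.70 ± 0.17 for PER44, 1.23 ± 0.19 for PER57 and 1.45 ± 0.17 for PER65 (adjusted p = 1.16e-05, 6.23e-04 and 5.68e-05). No member was higher in TiO2 and lower in CeO2. Calls in the same direction were made for 3 members. PER8 rose in both and more in CeO2, with a difference of 1.18 ± 0.18 (adjusted p = 5.71e-04). PER27 and PER71 fell in both, with differences of 0.30 and −0.40 that were not past the threshold (adjusted p = 0.402 and 0.352, 95% intervals −0.08 to 0.69 and −0.88 to 0.07).

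The 3 negative differences were of members that fell in CeO2 and did not pass the test in TiO2. They were −2.28 ± 0.12 for PER5, −2.02 ± 0.24 for PER62 and −0.61 ± 0.17 for PER58 (adjusted p = 9.28e-09, 6.23e-05 and 0.0315). PER5 and PER58 were near the floor in KCl, which limits what TiO2 could have shown. Positive differences beside those named were 1.50 for PER24, 1.50 for PER56, 1.40 for PER35 and 1.11 for PER7. Smaller ones were 0.75 for PER47, 0.69 for PER21, 0.68 for PER12, 0.64 for PER42 and 0.58 for PER30 (adjusted p = 0.0131). PER30 passed neither particle test and was at −0.28 in TiO2 and 0.30 in CeO2. The difference lost its call for PER12 without TiO2 replicates 2 or 3, water replicates 2 or 3 or CeO2 replicates 1 or 3 (adjusted p = 0.0533 to 0.0903). It was lost for PER21 without KCl replicate 2, TiO2 replicates 1, 2 or 3, water replicates 1 or 2 or CeO2 replicates 1 or 3 (adjusted p = 0.0502 to 0.0906). It was lost for PER58 without KCl replicate 1, TiO2 replicates 1 or 3, water replicates 1 or 2 or CeO2 replicates 1 or 3 (adjusted p = 0.0572 to 0.0905). A second quantile normalization ended the calls of the difference for PER12 (adjusted p = 0.052) and PER58 (adjusted p = 0.0584).

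**Figure D3:**
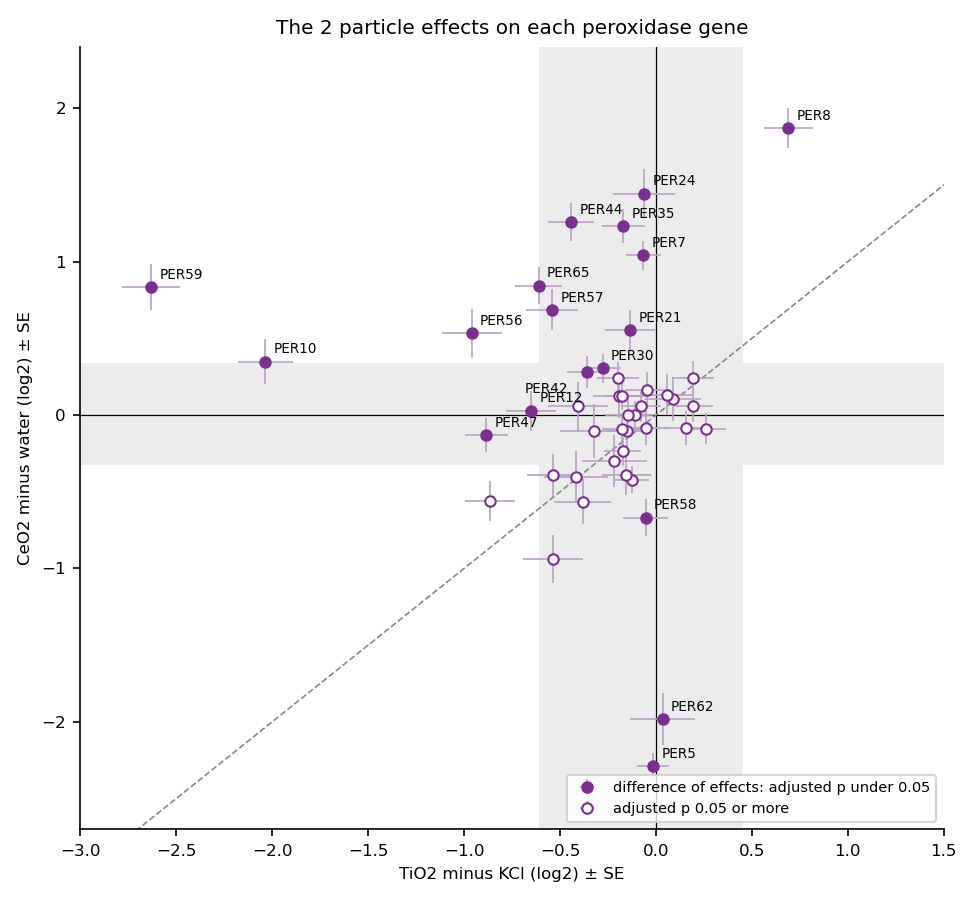
Change in CeO2 against water (vertical axis) plotted on the change in TiO2 against KCl (horizontal axis) for the 45 members, both in log2 with SE bars, with filled and named points where the difference of the effects had an adjusted p under 0.05. PER59, PER65, PER57 and PER44 lie at the upper left (lower in TiO2, higher in CeO2) and PER5 and PER62 lie straight below 0, while the dashed line marks equal effects and the grey bands hold the central 95% of all probe sets on each axis.

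Peroxidase genes that lie next to each other on a chromosome did not all respond alike. The RefSeq gene table (TAIR10.1) places 12 pairs of the family side by side, and in 4 pairs both genes were measured. PER58 and PER59 are one such pair. In CeO2 PER58 fell by 0.67 and PER59 rose by 0.83, and in TiO2 they were at −0.05 and −2.63. All 4 group means of PER58 were near the floor, so it could not have shown a fall in TiO2 like that of PER59. PER69, PER70 and PER71 form a run of 3 genes. All 3 had negative values in CeO2, of −0.39, −0.40 and −0.94, but of these genes only PER71 passed the test there (adjusted p = 0.178 for PER69 and 0.392 for PER70). In TiO2 they were at −0.15, −0.42 and −0.54, also negative, and again only PER71 passed (adjusted p = 0.55 for PER69 and 0.14 for PER70). PER67 and PER68, the remaining pair, were at −0.18 and −0.05 in TiO2 and −0.09 and −0.09 in CeO2, and their 4 group means were all near the floor. The difference between neighbours was not tested.

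Neither particle comparison was past the threshold in 24 members. These were PER6, PER9, PER11, PER17, PER18, PER19, PER20, PER25, PER30, PER31, PER36, PER39, PER45, PER49, PER52, PER54, PER55, PER63, PER66, PER67, PER68, PER69, PER70 and PER72. Their changes ran from −0.42 for PER70 to 0.26 for PER54 in TiO2, and from −0.56 for PER49 to 0.30 for PER30 in CeO2. The half-width of a 95% interval was at most 0.38 log2 among them. Means near the floor in all 4 groups were found for PER36, PER58, PER67 and PER68, and 12 of the 45 members had at least 1 such group mean. Probe sets of the 24 genes spanned group means from 3.19 for PER67 in TiO2 to 11.66 for PER69 in water.

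The 4 listed loci on shared probe sets were PER50 (AT4G37520) with PER51 (AT4G37530), and PER22 (AT2G38380) with PER23 (AT2G38390). The probe set of PER50 and PER51 fell in TiO2, from 7.26, 7.70 and 7.62 on the KCl arrays to 6.69, 7.07 and 7.15 (0.56 ± 0.13, adjusted p = 0.0138). In CeO2 it was at −0.41 (adjusted p = 0.184). Which of the neighbouring genes gave the signal is not known. The probe set of PER22 and PER23 was at 0.09 in TiO2 and 0.12 in CeO2 and passed neither test (adjusted p = 0.822 and 0.922).

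Coverage of genes that supply or share the chemistry of the peroxidases was thin, with 10 of 65 listed partners measured. None of the 10 passed a limma test in TiO2 or CeO2, and 2 did so in each at an unadjusted p under 0.05, against 23% and 9.8% of all probe sets. For the difference of the effects none of the 10 passed either, and 4 did so at an unadjusted p under 0.05, against 19.7% of all probe sets. Median changes of the 10 in TiO2 and CeO2 were −0.02 and 0.11, against 0.02 and −0.01 over all probe sets. The NADPH oxidases, which produce superoxide outside the cell, were represented by RBOHE, RBOHG and RBOHI, at −0.17, −0.04 and 0.03 in TiO2 and 0.31, 0.35 and 0.02 in CeO2. Monolignol synthesis was represented by HCT and CCR2, at 0.16 and −0.01 in TiO2 and 0.17 and −0.20 in CeO2. The Casparian strip receptor gene SGN3 was at 0.12 and −0.10, and the laccase gene LAC16, near the floor, at −0.07 and 0.19. The chloroplast ascorbate peroxidase genes SAPX and TAPX, of class I, were at 0.16 and −0.30 in TiO2 and −0.16 and 0.05 in CeO2. As a check of the labelled tissue, the shoot marker RCA had group means of 13.53 to 13.72 and the root marker PYK10 of 13.11 to 13.32, so both organs gave high signal in every group. These were the only shoot marker of 10 and root marker of 13 measured.

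The calls of the members differed in how far they rested on single arrays. Of the 13 calls in TiO2, 8 were kept with each of the 12 arrays left out in turn, and of the 15 in CeO2 11 were kept. The 8 were the rise of PER8 and the falls of PER10, PER12, PER27, PER47, PER56, PER59 and PER65. Without TiO2 replicate 1 the count in TiO2 was 8 of 45, 7 lower and 1 higher, against 9.27% of all probe sets in that fit (5.16% lower and 4.11% higher). In the same fits the fall of PER59 lay between −2.72 and −2.55, that of PER10 between −2.11 and −1.93, and that of PER5 in CeO2 between −2.34 and −2.25. No call of a member changed sign in any setting.

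**Figure D4:**
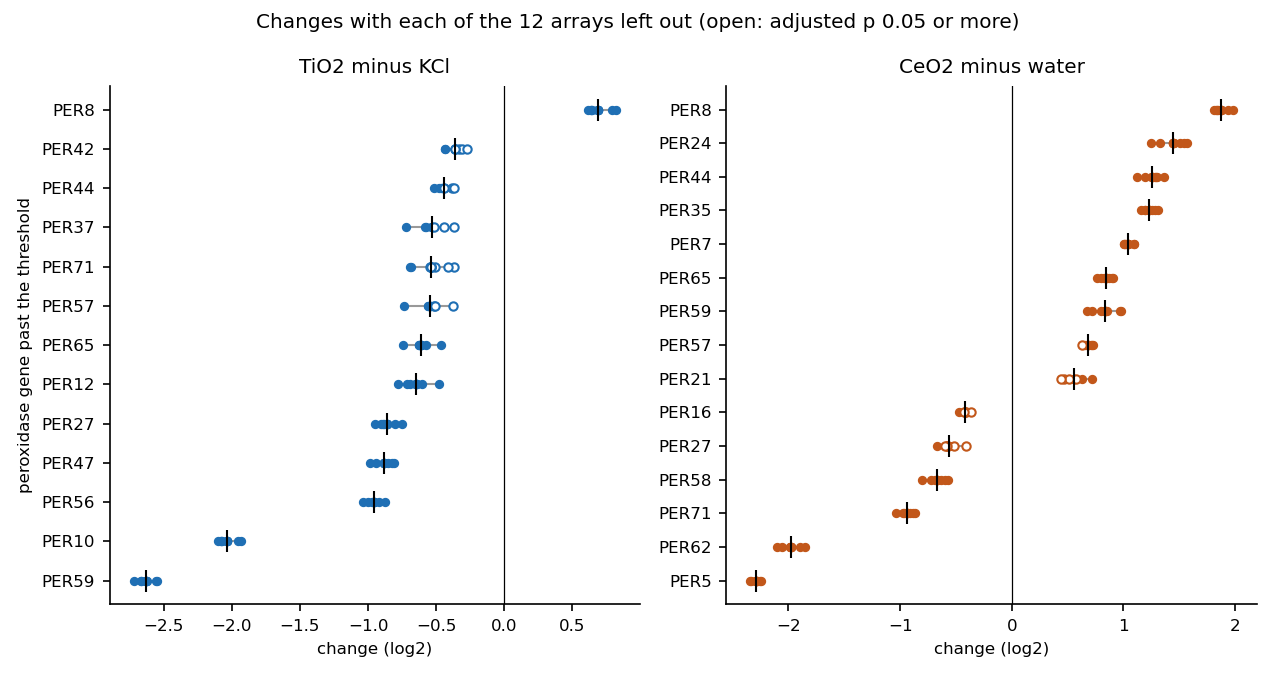
Change (log2) of each member past the threshold in TiO2 against KCl (left, 13 genes) and CeO2 against water (right, 15 genes), with a point for each fit without 1 of the 12 arrays, a black tick for the fit with all arrays, and open points where the adjusted p was 0.05 or more. PER37, PER42, PER44, PER57 and PER71 have open points on the left and PER16, PER21, PER27 and PER57 on the right, and no point crosses 0.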

How the data were processed

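RNA of 12 arrays was analysed. The authors deposited log2 expression per probe set, from RMA (robust multi-array averaging) per the submitters' processing notes; the version, the probe definitions and whether all arrays were normalized together are not given in the sources used here. No value was missing, no filter was applied, and no column was left unused. Probe sets were paired with loci through the probe annotation and the RefSeq gene table (TAIR10.1). PER numbers follow locus order, and for the 12 loci to which the table gives a peroxidase number it was the same.

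A linear model with a mean for each group was fitted to all 22746 probe sets and 12 arrays with limma 3.58.1 under R 4.3.3, moderated by empirical Bayes (8 residual and 7.63 prior degrees of freedom). The median SE of a particle difference was 0.11 log2. Lists were described by counts and medians, with no list test.

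Array values are printed for members past the threshold with a change of at least 0.5 log2 and for the Casparian strip and root hair members. Other members are named with their change or by counts and ranges, and of the partner and marker lists up to 4 genes past the threshold per comparison, to which the other measured list genes and PER49 were added after the values were seen. Members, role groups and lists were chosen with earlier results of these data known. Alternatives were another normalization, centring, a filter on dim probe sets, another prior, single sets, the replicate block, a stricter threshold and leaving out each array.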

Additional observations from a re-analysis of the deposited data

Results flagged for a closer look

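The results below are the 18 members in which the effect of CeO2 against water and the effect of TiO2 against KCl differed by the test of the difference itself (CeO2 effect minus TiO2 effect, limma, adjusted over all probe sets). Particle, control liquid and set of arrays cannot be told apart in it. The largest differences were 3.46 log2 for PER59, which fell in TiO2 and rose in CeO2, and 2.39 for PER10, which fell in TiO2. Other members that rose in CeO2 differed by 1.70 (PER44), 1.50 (PER24), 1.45 (PER65), 1.40 (PER35), 1.23 (PER57), 1.18 (PER8), 1.11 (PER7) and 0.69 (PER21). Of these, PER44, PER57 and PER65 also fell in TiO2, while PER8 rose there. PER56, PER47, PER12 and PER42, which fell in TiO2, differed by 1.50, 0.75, 0.68 and 0.64. PER30, past neither particle test, differed by 0.58. PER5, PER62 and PER58, which fell in CeO2, differed by −2.28, −2.02 and −0.61. With 3 arrays a group, no test for a single outlying array was made.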

How the results depend on the processing

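Of the settings tried, none turned the direction of a called member. With each array left out in turn, the count of members past the threshold ran from 8 to 13 in TiO2 (7 to 12 lower), from 11 to 16 in CeO2 and from 15 to 19 for the difference of the effects. In these fits the share of all probe sets past it ran from 7.83% to 11.2% in TiO2 (4.43% to 6.55% lower, 2.99% to 4.66% higher), from 1.68% to 2.81% in CeO2 (0.761% to 1.49% higher) and from 6.3% to 9.11% for the difference. At a threshold of 0.01 the TiO2 count was 8, with 7 lower, and the CeO2 count 12. With the replicate number as a block the counts were 15 in TiO2, 16 in CeO2 and 18 for the difference, and all 13, 15 and 18 calls were kept, while the shares of all probe sets were 12.7% (2886), 2.84% (647) and 9.44% (2148). The block added PER20 and PER70 in TiO2 and PER37 in CeO2. Single left-out arrays added PER30 and PER20 in TiO2, PER49 and PER56 in CeO2, and PER45 for the difference. Same-numbered arrays of a set correlated at 0.11, 0.05 and 0.27 in their deviations from the group means for KCl and TiO2, and at 0.30, 0.00 and 0.06 for water and CeO2, and not every array correlated best with its own number, so the numbers were not taken to pair the samples. With each set of 6 arrays fitted alone 9 members were past the threshold in TiO2 and 15 in CeO2, while the share of all probe sets past it in TiO2 went from 10.6% (2407) to 6.3% (1432) and in CeO2 from 2.42% (550) to 2.66% (606). In CeO2 that fit lost PER21 and added PER37. The threshold of 0.01 left 13 members for the difference. Past it were 1203 (5.29%) of all probe sets in TiO2, 346 (1.52%) in CeO2 and 972 (4.27%) for the difference. At 0.05 these were 2407, 550 and 1833. Leaving out the dimmest 30% of probe sets removed 11 members with dim signal. Among the other 34, all 11 calls in TiO2 and 13 in CeO2 were kept. Of the probe sets left, 15.3% (2432) were called in TiO2 and 3.09% (492) in CeO2. A second quantile normalization, median centring and an intensity trend with robust prior gave 11 to 13 in TiO2 and 15 or 16 in CeO2. Shares of all probe sets in these fits were 10.6% to 10.7% in TiO2 and 2.41% to 2.51% in CeO2. The choice between probe sets was not run as an alternative, since no member had more than 1. Dim signal near the floor limits falls, and 3 arrays a group limit small changes.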

Other observations

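Beyond the 60 listed loci, 10 numbered peroxidase loci had a probe set of their own (PER13, PER26, PER28, PER38, PER40, PER41, PER43, PER46, PER48 and PER61). None of them passed a limma test in TiO2, in CeO2 or in the difference of the effects, against 10.6%, 2.42% and 8.06% of all probe sets. At an unadjusted p under 0.05 the count was 1 in each, against 23%, 9.8% and 19.7% of all probe sets. With only 10 loci, these counts do not set them apart from the shares of all probe sets. Changes of the 10 loci ran from −0.50 to 0.10 in TiO2 and from −0.30 to 0.17 in CeO2. All 4 group means of PER13, PER41 and PER43 were near the floor, as were 3 of PER40 and some of PER26 and PER48, which limits falls. PER38 (AT4G08780), the neighbour of PER37, was at −0.50 in TiO2 (adjusted p = 0.0662) beside the fall of PER37 by 0.53. In CeO2 it was at 0.01. PER40, known for a role with PER9 in the anther tapetum, was at −0.18 and −0.30.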
